A study of Mus musculus with 19 samples.

Results

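Kif5b encodes a heavy chain of kinesin-1, the motor that walks along microtubules toward their plus ends. It was read by 1 of the 8751 probe sets in these data, number 17348220 (Entrez gene 16573), the 1 row whose only gene symbol was Kif5b. No row listed Kif5b among several symbols, and no other row repeated its values. Rows with 1 symbol numbered 1308 and stood for 1121 genes, while 1178 rows carried several symbols and 6265 were unnamed here. RNA came from the forebrain of mice of mixed BL6/10 background kept on 12 h light and 12 h dark, and was hybridised to Affymetrix Mouse Gene 2.0 ST arrays. The 4 groups were 5 arrays of EphA4 knockout mice after 6 h of sleep deprivation, 4 of undisturbed EphA4 knockout mice, 6 of wild-type littermates after 6 h of sleep deprivation and 4 of undisturbed wild-type littermates. The labels used here give no age, sex or kind of knockout allele, and among the rows with 1 symbol none was Epha4 and none was a listed cell type or region marker (0 of 48), so genotype and tissue were not checked here. Whether the arrays stand for separate animals is not stated in the labels, and the p-values below speak only of variation among the 19 arrays, which may in part be technical.

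The motor is built of heavy chains, which hold the ATP-driven motor domain, and light chains, which bind cargo. KIF5B is the heavy chain found in most cell types, and its paralogues KIF5A and KIF5C are mainly neuronal. In neurons the motor carries mitochondria, vesicle precursors and RNA granules along axons and dendrites, with adaptor proteins linking it to each cargo. EphA4 is a receptor tyrosine kinase for ephrins that acts in axon guidance and at synapses.

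Kif5b was selected on its expression values: it was picked for description because it stood among the named genes with the smallest p between knockout and wild type in undisturbed mice. Its level in that comparison is therefore given as a description with no test. The responses to sleep deprivation within each genotype, and the difference between them, use the same control arrays and are also given without a test. The genotype difference among the 11 sleep-deprived arrays was tested, since their group means did not enter that comparison, although their spread is part of the shared error estimate behind its p.

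Values are log2 expression, so a difference of 1 is a doubling. The sleep-deprived knockout arrays read 5.49, 5.63, 5.81, 5.57 and 5.69 for Kif5b. The undisturbed knockout arrays read 5.70, 5.54, 5.51 and 5.72. Both sets of knockout arrays cover nearly the same range, with replicate 3 of the sleep-deprived set the highest knockout array. The sleep-deprived wild-type arrays ran from 5.64 to 5.79 with a median of 5.69, the narrowest spread of the 4 groups. The undisturbed wild-type arrays read 5.83, 5.87, 5.79 and 6.01. Of these, 3 lay above every array of the other groups, and the lowest was passed by replicate 3 of the sleep-deprived knockout and replicate 4 of sleep-deprived wild type.

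The group means were 5.64 ± 0.12 (SD, n = 5) in the sleep-deprived knockout, 5.62 ± 0.11 (SD, n = 4) in the undisturbed knockout, 5.71 ± 0.06 (SD, n = 6) in sleep-deprived wild type and 5.87 ± 0.09 (SD, n = 4) in undisturbed wild type. In falling order these are undisturbed wild type, sleep-deprived wild type, sleep-deprived knockout and undisturbed knockout. The sleep-deprived knockout lay within 1 knockout SD of both of its neighbours in this order. The step between the 2 wild-type groups, 0.17, was larger than the SD of either. It rests on undisturbed arrays that were used to pick the gene, and it was not tested. In whole forebrain, fewer cells of a type and less Kif5b RNA per cell cannot be told apart.

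**Figure D1:**
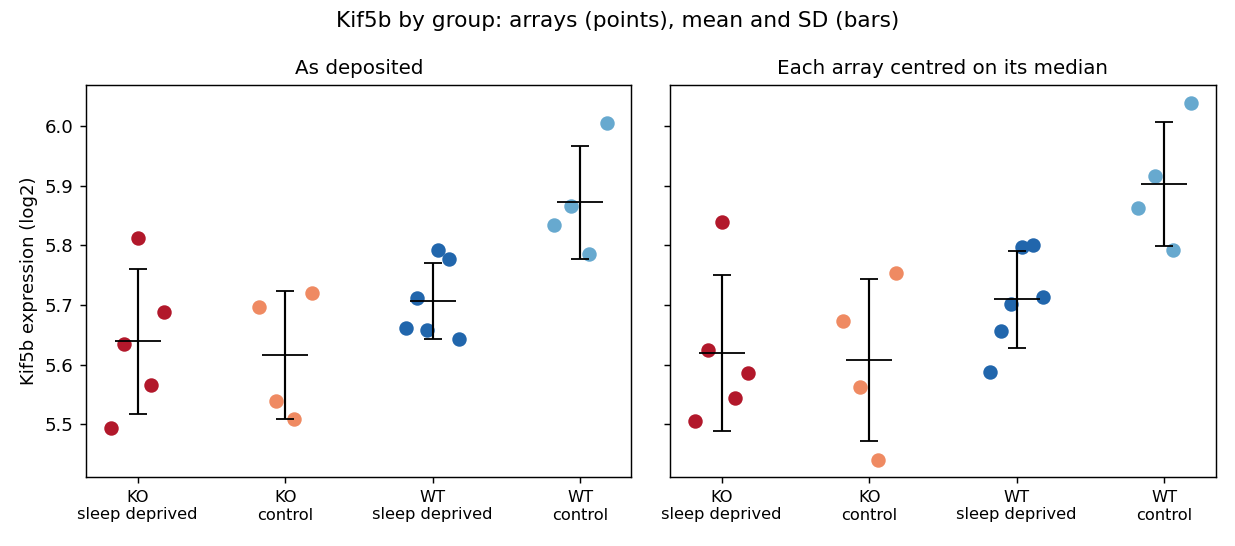
Kif5b expression (log2, vertical axis) on each of the 19 arrays, by group, as deposited on the left and with every array centred on its median on the right; points are arrays, black bars the mean and SD. The undisturbed wild-type arrays sit highest, from 5.79 to 6.01 as deposited, and the undisturbed knockout arrays lie below all of them, from 5.51 to 5.72.

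The row was somewhat below the middle of the table in brightness, with 55.4% of rows brighter by their mean. Kif5b lay below its own array's median on 18 of the 19 arrays, between the 39.8th and 51.6th percentile of rows within an array. Its mean was 5.71, against a mean array median of 5.97. Its SD within groups was 0.10, against a median of 0.17 over all rows, and a small SD is part of what gave the small p it was selected on. The deposited values carry no detection calls, so whether the row stood above background was not tested. Whether it reads the main Kif5b transcript could not be checked.

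In undisturbed mice, Kif5b averaged 5.62 in the knockout and 5.87 in wild type, a log2 difference of -0.26 ± 0.08 (SE), or 0.84 times the wild-type level. All 4 knockout arrays lay below all 4 wild-type arrays, a pattern that 1.5% of all rows had in the same direction. Larger differences of either sign were seen in 652 rows, 7.45% of the table. No row passed the threshold in this comparison (limma, adjusted p under 0.05, 0% of 8751 rows, with 476 rows at an unadjusted p under 0.05). Array medians moved the other way, averaging 5.98 in the undisturbed knockout and 5.94 in undisturbed wild type. After median centring of the arrays the Kif5b difference was -0.29, and the groups still did not overlap. Without wild-type control replicate 4, the array with the highest Kif5b reading, it was -0.21.

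After sleep deprivation, Kif5b averaged 5.64 in the knockout and 5.71 in wild type, and the groups overlapped. The knockout arrays held both the lowest (5.49) and the highest (5.81) of the 11 readings. The log2 difference was -0.07 ± 0.07 (SE), with a 95% interval from -0.21 to 0.07, or from 0.86 to 1.05 times the wild-type level. It did not pass limma's test (adjusted p = 0.70), while 147 rows, 1.68% of those tested, did. An exact two-sided permutation test over the 462 splits of the 11 arrays gave p = 0.27. Without the lowest knockout array, replicate 1, the difference was -0.03, and without the highest, replicate 3, it was -0.11 (limma adjusted p = 0.91 and 0.53). Larger differences of either sign were seen in 60.3% of rows.

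Within the knockout, Kif5b averaged 5.64 after sleep deprivation and 5.62 without it, a log2 difference of 0.02 ± 0.08 (SE), and the arrays of the 2 groups were interleaved. The sign of this small difference turned to -0.02 without sleep-deprived knockout replicate 3. Within wild type, Kif5b averaged 5.71 after sleep deprivation and 5.87 without it, a log2 difference of -0.17 ± 0.07 (SE), or 0.89 times the undisturbed level. The 2 wild-type groups overlapped slightly, with the highest sleep-deprived array just above the lowest control array, both at 5.79 when rounded. The difference between the 2 responses, knockout minus wild type, was 0.19 ± 0.10 (SE). This is also the amount by which the genotype gap was smaller after sleep deprivation than in undisturbed mice, and whether the gaps differ was not tested, because the undisturbed arrays chose the gene.

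**Figure D2:**
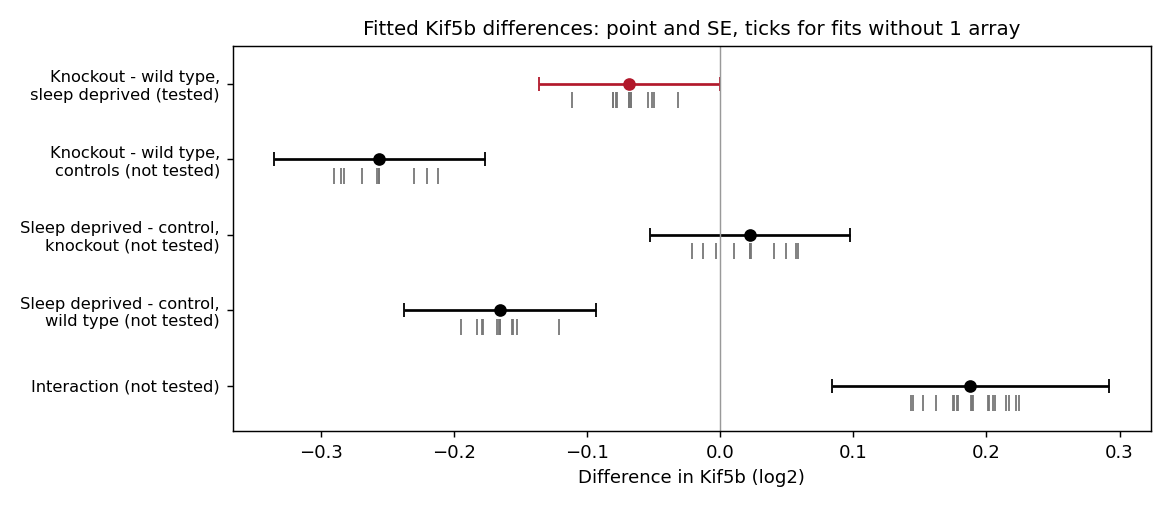
Fitted differences in Kif5b (log2, horizontal axis) for the 5 comparisons; points are the estimates from all 19 arrays, bars their SE, and grey ticks the estimates without each array in turn. Only the top comparison was tested, at -0.07, while the undisturbed genotype difference lies at -0.26 and its ticks run from -0.29 to -0.21.

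Other parts of the transport machinery were thinly covered among the rows with 1 symbol. The 6265 unnamed rows and the 1178 with several symbols were not searched and may hold further members. No other kinesin, kinesin light chain or myosin was measured here under a symbol of its own, so Kif5b could not be set beside Kif5a or Kif5c. Across lists of kinesins, kinesin-1 adaptors and cargoes, dynein and dynactin, tubulins and microtubule-associated proteins, myosins and Rab GTPases, 9 genes besides Kif5b were measured. None of the 9 passed limma's test in any of the 5 comparisons. At an unadjusted p under 0.05 there were 3 for genotype after sleep deprivation, 0 for genotype in undisturbed mice, 2 for sleep deprivation in the knockout, 2 for it in wild type and 1 for the interaction. At that same unadjusted level stood 15.4%, 5.44%, 11.8%, 7.80% and 11.5% of all rows, in the same order of comparisons. The lists were drawn up with earlier results of these data known, so their counts may follow in part from that choice. The share of all rows past the adjusted threshold was 1.68%, 0%, 0.263%, 0% and 0.0686%.

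In undisturbed mice, the comparison in which Kif5b differed by -0.26, the 9 genes had log2 differences from -0.07 to 0.08. Kif5b was picked for its small p in this comparison, so its distance from the 9 genes follows in part from that choice. The median of the 9 genes was -0.03, against 0.01 over all rows, with 8 of negative and 1 of positive sign. No gene of the 9 had knockout arrays wholly apart from wild type there, where 1.5% of all rows had them wholly below. Gabarap, a small ubiquitin-like protein that binds GABA-A receptors and takes part in autophagy, differed by -0.01 ± 0.08 (SE). Dync2h1, the heavy chain of the dynein that returns cargo along cilia, differed by -0.06 ± 0.07 (SE). Map2, which binds and stabilises dendritic microtubules, differed by -0.03 ± 0.05 (SE).

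After sleep deprivation the alpha-tubulin gene Tuba1b had the smallest p of the 9 genes in the genotype comparison. It ran from 6.82 to 7.33 with a median of 7.25 in the knockout, and from 6.12 to 6.92 with a median of 6.80 in wild type, so the groups overlapped. Its log2 difference was 0.49 ± 0.14 (SE, limma adjusted p = 0.085), and without sleep-deprived wild-type replicate 3 it was 0.55 (adjusted p = 0.049). No other fit without a single array brought any of the 9 genes past the threshold. Without sleep-deprived knockout replicate 1 their smallest limma adjusted p was 0.19. Tuba1a, another alpha-tubulin gene, had a log2 difference of 0.19 ± 0.08 (SE, adjusted p = 0.24) on its brighter probe set and 0.24 (adjusted p = 0.12) on the other. Alpha-tubulin genes are close in sequence, and signal shared between their probe sets was not tested. In undisturbed mice the same differences were -0.0019 for Tuba1b and -0.05 for Tuba1a, with adjusted p = 0.999 and 0.95. The interaction was 0.50 ± 0.22 (SE, adjusted p = 0.40) for Tuba1b and 0.24 ± 0.12 (SE, adjusted p = 0.44) for Tuba1a, so neither passed. Gabarap and Dync2h1 had log2 differences of -0.02 and -0.04 between the genotypes after sleep deprivation, with adjusted p = 0.91 and 0.84. Map2 differed by -0.05 ± 0.05 (SE, adjusted p = 0.71) after sleep deprivation.

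Among the Rab GTPases, which direct vesicles between membranes, Rab24 averaged 9.42 ± 0.05 (SD, n = 5) in the sleep-deprived knockout and 9.56 ± 0.09 (SD, n = 6) in sleep-deprived wild type. Its log2 difference was -0.14 ± 0.06 (SE, limma adjusted p = 0.25), and the groups overlapped. Sleep-deprived knockout arrays lay below all undisturbed knockout arrays for Rab24, a pattern that 1.3% of rows had in that direction. The log2 difference between these knockout groups was -0.17 ± 0.06 (SE, limma adjusted p = 0.29). Rab3c, a Rab3 family member of synaptic vesicles, and Rab20 had log2 differences of -0.06 and 0.04 between the genotypes after sleep deprivation, with adjusted p = 0.84 and 0.93.

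Wdr78, a gene of the axonemal dynein that drives cilia, was the list member with the smallest p for sleep deprivation in both genotypes. It was put on its list by name, with earlier results of these data known, so its rank may follow in part from that choice. Its log2 difference was 0.26 ± 0.08 (SE, limma adjusted p = 0.18) in the knockout and 0.25 ± 0.08 (SE, adjusted p = 0.39) in wild type. In wild type the sleep-deprived arrays lay above all undisturbed ones, as in 0.891% of rows. Kif5b had log2 differences of 0.02 and -0.17 in those comparisons.

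**Figure D3:**
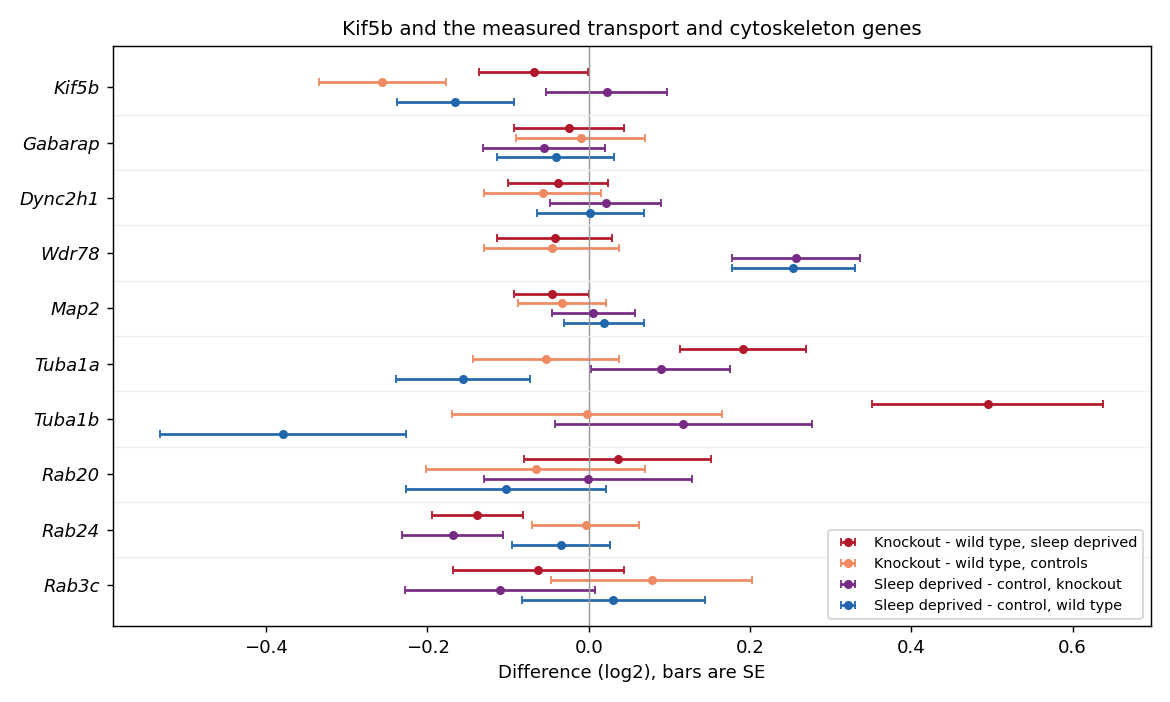
Differences (log2, horizontal axis, bars are SE) of Kif5b and the 9 other measured transport and cytoskeleton genes in 4 comparisons, marked by colour. Kif5b is lowest in the undisturbed genotype comparison (-0.26), the one it was picked on, where the other genes lie between -0.07 and 0.08. Tuba1b is farthest right for genotype after sleep deprivation (0.49).

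The genes whose levels followed Kif5b most closely were sought over the 19 arrays, which share the 4 group means. Over the other 1120 genes Pearson's r with Kif5b had a median of -0.02, with the middle 90% of genes between -0.40 and 0.38. Pigbos1, which encodes a microprotein of the outer mitochondrial membrane, had the highest r at 0.73, with a Spearman rho of 0.71. Its group means were 7.46 in the sleep-deprived knockout, 7.38 in the undisturbed knockout, 7.46 in sleep-deprived wild type and 7.57 in undisturbed wild type. Like Kif5b, it was highest in undisturbed wild type and lowest in the undisturbed knockout, which a choice by r over these same arrays favours. V1rd19, a vomeronasal receptor gene, had an r of 0.63, and Zfp39, a zinc finger gene, had 0.60. Rnase2a, an eosinophil-associated ribonuclease gene, had 0.58, and B4gat1, a glycosyltransferase that acts on dystroglycan, had 0.57. Spearman rho for these 4 ran from 0.51 to 0.64. B4gat1 had rank 6 among all genes, as predicted, microRNA and small nucleolar genes were passed over. The V1rd19 row was far dimmer than Kif5b, with group means from 3.21 to 3.39. Whether it stood above background was not tested.

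The lowest correlations were those of Arsj, an arylsulfatase family gene, at -0.71 (Spearman rho -0.59), and Apoa2, an apolipoprotein gene, at -0.70 (Spearman rho -0.71). With the arrays centred on their medians r was -0.39 for Arsj and -0.55 for Apoa2. Krtap6-1, a hair keratin-associated gene, had -0.61, Tmc4, a gene of the transmembrane channel-like family, -0.56, and Csf2, the gene of the cytokine GM-CSF, -0.51. Among all genes these 3 had ranks 5, 8 and 13 from the lowest, as predicted, microRNA and small nucleolar genes were passed over. The Krtap6-1 row was also dimmer than Kif5b, with group means from 3.93 to 4.09. Apoa2 averaged 7.79 ± 0.05 (SD, n = 5) in the sleep-deprived knockout and 7.52 ± 0.07 (SD, n = 4) in undisturbed wild type, its highest and lowest groups. Among the 9 transport and cytoskeleton genes, r with Kif5b ran from -0.05 for Tuba1a to 0.35 for Rab24, all within the middle 90% of genes.

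These likenesses rested partly on single arrays. Without the 2 arrays farthest from the median of Kif5b, undisturbed wild-type replicate 4 and sleep-deprived knockout replicate 1, r was 0.66 for Pigbos1, 0.48 for V1rd19, -0.52 for Arsj and -0.59 for Apoa2. Of the 5 named genes with the highest r, 1 was still among the highest 5 when either of these arrays was left out alone. With each group's mean removed, so that only the spread within groups counts, the highest values were 0.63 for Nars2 and 0.62 for Mto1, both of mitochondrial tRNA metabolism, then 0.62 for V1rd19, 0.59 for Pigbos1 and 0.58 for Cxcl14, a chemokine gene. Pigbos1 and V1rd19 were in both sets. Without that removal Nars2 had an r of -0.0075 and Mto1 of 0.26, both within the middle 90% of genes. With it, Zfp39 had 0.26 and Tmc4 -0.16.

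**Figure D4:**
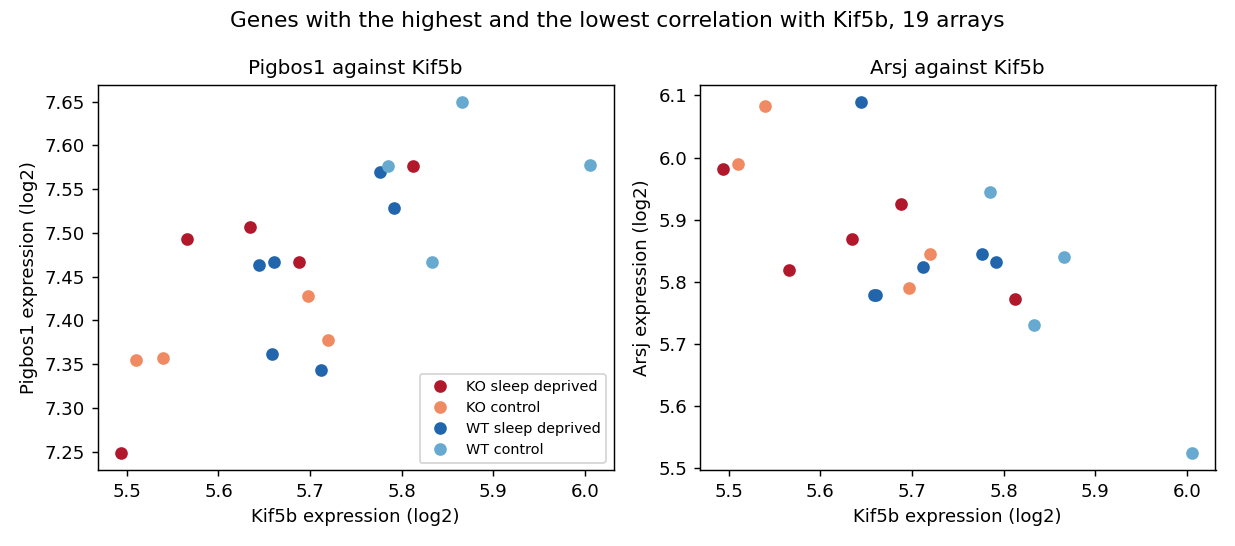
Pigbos1 (left) and Arsj (right) expression (log2, vertical axes) against Kif5b expression (log2, horizontal axes) on the 19 arrays, coloured by group. Pigbos1 goes up with Kif5b (r = 0.73) and Arsj goes down (r = -0.71, or -0.39 with the arrays centred on their medians), with the undisturbed wild-type array at 6.01 at the right edge of both plots.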

How the data were processed

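The deposited values are log2 expression, 1 value per probe set and array, from 2.18 to 14.2. RMA, oligo and limma are named without versions in the submitters' processing notes; what each did is not stated there, and the genome build is not given in the sources used here. RMA values of dim rows are usually compressed, so small differences there may be understated. Kif5b differences that rest on the arrays used to pick the gene may instead be overstated. Array medians ran from 5.90 to 6.07 and array correlations from 0.981 to 0.993. Precision is limited by the number of arrays, since arrays have no read depth. The submitters warn that the sample tables are incomplete.

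Symbols came from the platform annotation. Groups came from the sample titles. Each row was fitted with limma 3.58.1 in R 4.3.3 on all 19 arrays with 4 group means and no covariates, and p-values were adjusted by Benjamini-Hochberg over 8751 rows at a threshold of 0.05. The fit was tried on simulated data with independent noise and added differences larger than those of Kif5b. That run does not show what the fit would find at the size of the Kif5b differences. Genes with several rows were read from the brightest. Named genes were from each of 6 transport and cytoskeleton lists any gene past the threshold and up to 4 by smallest p after sleep deprivation, which took in all 9 measured members, and 5 genes at each end of r with Kif5b, passing over predicted, microRNA and small nucleolar genes. The gene and the lists were chosen with earlier results of these data known. Plots used matplotlib 3.10.9 in Python 3.11.15.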

Additional observations from a re-analysis of the deposited data

Results flagged for a closer look

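Of 92 sets of arrays examined, 23 named genes in 4 groups, 5 held an array that stood far from its group by Dixon's ratio, about the 1 in 20 that chance gives. None was in Kif5b. Dync2h1 read 8.20 on sleep-deprived knockout replicate 5, where the nearest of the other arrays read 8.44. Rab24 read 9.39 on sleep-deprived wild-type replicate 3, with the nearest at 9.56. Arsj read 6.09 on sleep-deprived wild-type replicate 6, with the nearest at 5.85. Mto1 read 6.42 on sleep-deprived knockout replicate 3, with the nearest at 6.23, and 5.91 on undisturbed knockout replicate 2, with the nearest at 6.16.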

How the results depend on the processing

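Over 29 alternatives the Kif5b genotype difference after sleep deprivation kept its sign and stayed short of the threshold, from -0.11 to -0.03, with adjusted p from 0.53 to 0.91 in limma's fits. In undisturbed mice the difference ran from -0.29 to -0.21 over 28 alternatives, and the wild-type response to sleep deprivation from -0.19 to -0.12. The knockout response ran from -0.02 to 0.06, negative in 3 of 28 alternatives, and the interaction from 0.14 to 0.22 over 27. In many of these alternatives a difference could not move, only its error or adjusted p. These are fits without an array of a group outside the comparison, or with another error estimate or set of rows. Among the 9 transport and cytoskeleton genes, the count called for genotype after sleep deprivation was 0 to 1 on leaving out single arrays, with Tuba1b the gene called without sleep-deprived wild-type replicate 3, and 0 in every other alternative run and in the other 4 comparisons. The count over all rows for genotype after sleep deprivation was 147 of 8751. On leaving out single arrays it ran from 67 (without sleep-deprived knockout replicate 1) to 298 (without sleep-deprived wild-type replicate 3). It was 36 on the groups of the comparison alone and 70 with the replicate block. With only rows of 1 symbol it was 28, but of 1308 rows, so that count is not on the same scale. For sleep deprivation in the knockout the count of 23 ran from 6 (without sleep-deprived knockout replicate 3) to 43 (with array weights). For it in wild type the count of 0 reached 3 (without sleep-deprived wild-type replicate 5). For the interaction the count of 6 ran from 0 (of the 1308 rows of 1 symbol) to 41 (without sleep-deprived wild-type replicate 3). Same-numbered arrays of different groups did not deviate together (correlations from -0.22 to 0.08 over 25 pairs), and with the replicate number as a block the Kif5b differences were -0.08 after sleep deprivation and -0.26 in undisturbed mice, with no call changed for Kif5b or the 9 genes. The interaction could not be fitted on the groups of one comparison alone, and Kif5b had no other row to try. The brightness of the row, somewhat below the middle, and the number of arrays limit these values.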
